A study of Mus musculus with 10 samples.

Results

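Enteroendocrine cells are scattered hormone-secreting cells of the gut epithelium. They keep peptide hormones in dense-core granules packed with chromogranins and secretogranins, and release them in response to nutrients, microbial products and nerves. In the colon, L cells make proglucagon and peptide YY, and enterochromaffin cells make serotonin. The 10 genes described here are 6 peptide hormone genes (Gcg, Pyy, Insl5, Cck, Nts and Sst), 3 granule protein genes (Chga, Chgb and Scg2) and Tph1, which encodes the enzyme that starts serotonin synthesis outside the brain. They were chosen by name, as the non-control probes that the array files label with these symbols, and make up 13 probes among 44554 probes of 25160 named genes.

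RNA was hybridised to 10 Agilent 2-colour arrays, on which each spot gives the intensity of a sample labelled with Cy5 and of another labelled with Cy3. Colon tissue of 2 KO mice was set against that of 2 WT mice on 4 arrays, 1 mouse pair at a time and in both dye orientations. KO mice were males with Trp53 fl/fl alleles and Axin2CreERT2, whose recombinase works in Axin2-expressing cells once tamoxifen is given. All mice had received 2% dextran sodium sulfate (DSS), an agent that damages the colon lining, over 5 to 7 days, and were killed 2 months later. The ages of the mice, and whether WT mice carried the recombinase or the floxed alleles, are not given in the sources used here. The other 6 arrays held colon organoids, epithelial cultures grown from crypts, with 2 samples each of KOWI, KO and WT. Organoid deletion used VillinCreERT2, active in intestinal epithelium, started by 2 days of 4OH-tamoxifen at 800 nM. Nutlin-3A, which acts against cells with p53, then served to select KO cultures. KO and WT organoids grew in full medium. It held sWnt at 0.328 nM, CHIR at 3 uM, R-spondin conditioned medium at 25%, Noggin at 100 ng/ml and EGF at 50 ng/ml. KOWI stands for a KO culture described as Wnt-independent, grown in medium without the Wnt activators sWnt and CHIR, so medium and genotype changed together between KOWI and WT, and medium cannot be told apart from adaptation to it between KOWI and KO. Nothing in the labels says that organoid replicates came from separate mice, so their p-values reflect no more than sample-to-sample spread, possibly technical.

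The targeted gene, Trp53, was well above background in 4 of 4 channels of KO tissue and 4 of 4 of WT tissue, with log2 KO over WT of -0.46 and 0.04 in the mouse pairs. In organoids it was above background in 0 of 4 KOWI channels, 0 of 4 KO channels and 4 of 4 WT channels. Whether its probe lies in the deleted part was not checked, so the tissue values do not check the labels. The share of spots well above background ran between 44.6% and 59.1% over the channels. Spots that the scanner software marked as outliers, which were left out, were 13.7% to 16.3% of spots on the 4 arrays with KOWI, against 0.808% and 2.18% on the other 2 organoid arrays and 1.33% to 4.41% on tissue arrays.

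The bases before the transcription start are shown for 4 members whose values stand out below: Gcg and Chga, with the lowest KO over WT ratios in tissue, and Scg2 and Chgb, with the highest in organoids. Each stretch is the last 150 bases before the first start that RefSeq lists (build GRCm38.p6), 5′ to 3′ on the gene's strand, at chr2:62483654-62483803 (minus strand) for Gcg, chr12:102554791-102554940 (plus strand) for Chga, chr1:79440027-79440176 (minus strand) for Scg2 and chr2:132781492-132781641 (plus strand) for Chgb. Capitals mark matches on either strand to the E-box CAGATG bound by NEUROD1, a transcription factor of enteroendocrine cells, to the cAMP response element TGACGTCA or its core TGACG, or to the TATA box TATAAA.
Gcg: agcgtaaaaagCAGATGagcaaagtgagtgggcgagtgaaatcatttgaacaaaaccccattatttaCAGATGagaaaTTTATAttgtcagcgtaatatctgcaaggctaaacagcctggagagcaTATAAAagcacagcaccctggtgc
Chga: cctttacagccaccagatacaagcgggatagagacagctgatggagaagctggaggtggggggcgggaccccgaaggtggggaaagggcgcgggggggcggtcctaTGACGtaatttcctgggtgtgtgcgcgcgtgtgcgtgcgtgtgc
Scg2: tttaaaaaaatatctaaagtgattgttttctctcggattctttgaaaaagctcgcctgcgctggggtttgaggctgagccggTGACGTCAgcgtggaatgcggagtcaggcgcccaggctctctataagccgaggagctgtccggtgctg
Chgb: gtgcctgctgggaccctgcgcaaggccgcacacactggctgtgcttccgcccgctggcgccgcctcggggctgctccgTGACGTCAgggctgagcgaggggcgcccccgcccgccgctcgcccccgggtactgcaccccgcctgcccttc

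All 10 members matched a RefSeq entry, and 250 bases before the start were searched in each and in all 32851 listed starts. The full TGACGTCA was found in 3 of 10 members, Sst, Chgb and Scg2, and in 1.55% of all starts. In each of these 3 it starts between 48 and 72 bases before the transcription start. Its core TGACG, which the full element contains, was found in 7 of 10 members and 17.8% of all starts. CAGATG was found in Gcg, 139 and 83 bases before the start, and in Cck, against 14.4% of all starts. TATAAA was found on either strand in 2 members, Gcg and Insl5, and in 12.4% of starts. In Insl5 it lay on the opposite strand only, 88 bases before the start. The Wnt effector site CTTTGAT was found in Tph1 and 3.21% of starts. A half-site of the p53 response element was found in Pyy alone among the members, and in 7.13% of starts. These are matches of letters and were not tested as binding sites.

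In KO colon tissue 2 months after DSS, 9 of 10 members had a lower level than in WT tissue in both mouse pairs, with the lowest ratios for the hormone gene Gcg and the granule protein gene Chga. No member passed the test over all genes (limma, Benjamini-Hochberg adjusted p under 0.05), and neither did any other gene (0% of 12625 genes tested, with 1870, or 14.8%, at an unadjusted p under 0.05). Both pairs lay below 0 for 34.8% of all genes. The members' median log2 ratio was -0.34, and 51.2% of all genes tested had a ratio below 0. Below, levels are normalised log2 intensities, which can be compared between samples for 1 gene but not between genes. Ratios are log2 KO over WT over 2 mouse pairs. Their standard error (SE) is that of limma, which draws the spread of each gene toward that of all genes.

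Gcg encodes proglucagon, the precursor of GLP-1 and GLP-2 in L cells. The Gcg probe covers bases 62312685 to 62312744 of chromosome 2 in mm9. The Gcg level was 9.15 and 9.73 in KO mice, against 10.48 and 10.87 in WT mice. The groups did not overlap, and the log2 ratio of -1.24 (SE 0.09, 2.36-fold lower, limma adjusted p = 0.243) came with pair ratios of -1.33 and -1.14. All 4 arrays gave values between -1.05 and -1.38, so both dye orientations went the same way.

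Insl5, which encodes the orexigenic L-cell hormone insulin-like peptide 5, had levels of 8.97 and 9.29 in KO mice, against 9.60 and 9.95 in WT mice. The groups did not overlap, and the log2 ratio was -0.64 (SE 0.06, limma adjusted p = 0.243). The pair ratios of -0.63 and -0.65 hide a dye difference: with KO in Cy5 the ratio was -0.07 in pair 1 and -0.27 in pair 2, and with WT in Cy5 it was -1.19 and -1.03. Nts had the next largest difference between dye orientations, up to 0.61.

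The other 4 hormone genes had smaller ratios. Pyy, which encodes peptide YY, a satiety hormone stored with GLP-1, had levels of 12.02 and 12.91 in KO mice, against 12.33 and 13.06 in WT mice. Its groups overlapped, since the pairs differed by more than the genotypes within them (log2 ratio -0.23, SE 0.08). Cck, for cholecystokinin, had 9.02 and 9.01 in KO mice, against 9.48 and 9.31 in WT mice (log2 ratio -0.38, SE 0.08), without overlap. Sst, for somatostatin, the inhibitory hormone of D cells and of enteric neurons, had 9.44 and 9.61 in KO mice, against 9.87 and 9.81 in WT mice (log2 ratio -0.31, SE 0.09), also without overlap. Nts, for neurotensin, was the exception among the 10: its level was 9.66 and 9.73 in KO mice, against 10.13 and 9.20 in WT mice, so that its pair ratios of -0.47 and 0.53 had opposite signs.

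Chga, Chgb and Scg2 encode the granule matrix proteins chromogranin A, chromogranin B and secretogranin II. The Chga level was 12.06 and 11.97 in KO mice, against 12.90 and 12.77 in WT mice. The groups did not overlap, and the log2 ratio of -0.82 (SE 0.06, 1.76-fold lower, limma adjusted p = 0.243) was between -0.65 and -0.93 on each of the 4 arrays. The Chga probe covers bases 103803083 to 103803142 of chromosome 12 in mm9.

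Chgb differed by less, with levels of 16.85 and 16.90 in KO mice and 17.03 and 16.98 in WT mice (log2 ratio -0.13, SE 0.07). Its probe was among the brightest, and the ratios of the 872 genes within 0.5 of its level had an SD of 0.0862, against 0.332 over all 12625 genes, so ratios were small for bright probes of any kind. Scg2 had 12.10 and 11.68 in KO mice, against 12.13 and 12.17 in WT mice (log2 ratio -0.26, SE 0.15), with most of the difference in pair 2. The Scg2 ratio of pair 1 was -0.03, and its dye orientations had opposite signs (-0.28 with KO in Cy5 and 0.21 with WT in Cy5). Tph1, for tryptophan hydroxylase 1, had 9.44 and 8.84 in KO mice, against 10.00 and 9.02 in WT mice (log2 ratio -0.37, SE 0.13). Its groups overlapped.

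**Figure D1:**
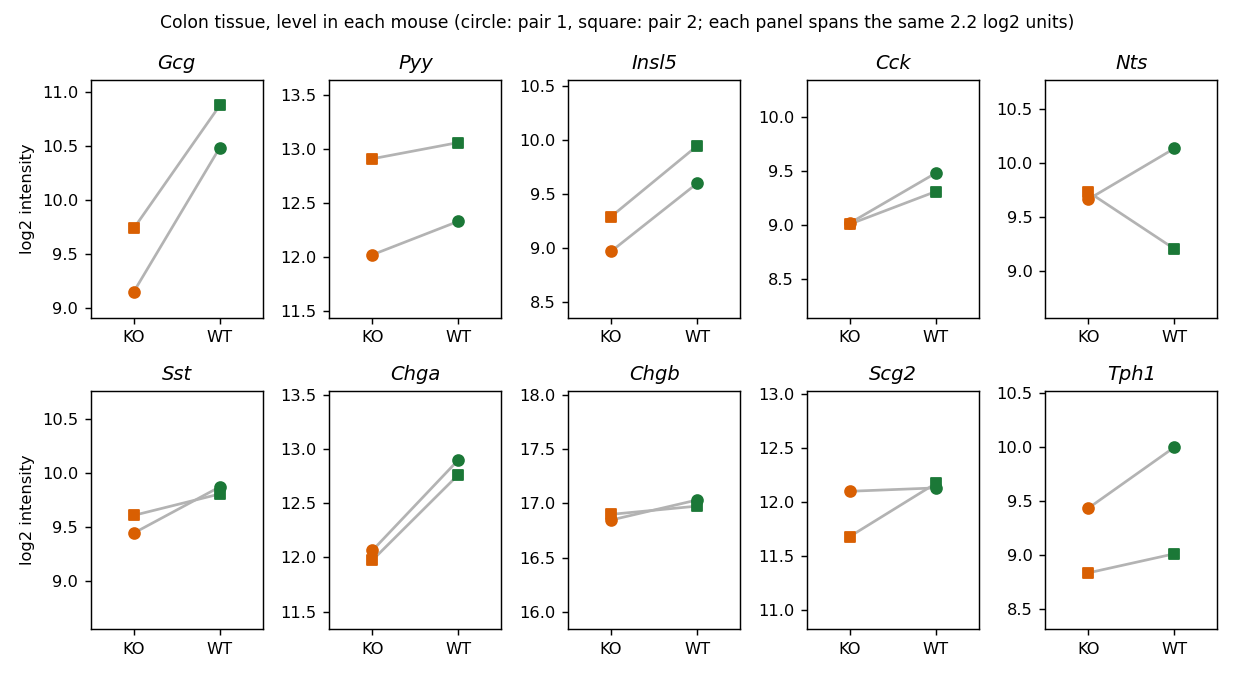
Level of each of the 10 members in colon tissue of KO mice (left in each panel) and WT mice (right), as normalised log2 intensity on the vertical axis. Circles are pair 1 and squares pair 2, and grey lines join the mice hybridised together. KO lies below WT in both pairs for 9 members, while the 2 lines of Nts run in opposite directions.

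KO and WT groups did not overlap for 7 of 10 members, all lower in KO (14.1% of all genes did so in that direction). Leaving out 1 mouse turned the sign of 3 members, with unpaired values: Pyy was 0.21 without KO replicate 1 and 0.13 without WT replicate 2, Tph1 was 0.12 without WT replicate 1, and Nts ran between -0.44 and 0.49. Gcg, Chga and Insl5 passed the test with median centring in place of loess (adjusted p 1.47e-07, 0.00131 and 0.0194), a setting that called 863 genes. In whole tissue, fewer enteroendocrine cells and less RNA per cell cannot be told apart.

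Markers of other cell types also differed between KO and WT tissue, though none passed the test. General epithelial markers were negative for 14 of 14 genes tested (median log2 -0.10), goblet cell markers for 10 of 10 (median -0.19) and colonocyte markers for 11 of 12 (median -0.28). Smooth muscle markers were positive for 8 of 8 (median 0.15) and fibroblast markers for 7 of 7 (median 0.13). The summed intensity of 16 epithelial markers was 1659330 to 1719380 in KO mice, against 1755530 to 1877930 in WT mice, and that of 8 smooth muscle markers 627151 to 818232 in KO mice, against 592012 to 704439 in WT mice. Enteric neuron markers, relevant because neurons also express chromogranin, secretogranin, Sst and Nts genes, had 6 negative and 5 positive values (median -0.05). The part of tissue makeup in the members' values was not tested.

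In organoids, KO samples had higher fitted values than WT samples for all 8 members that could be tested, with the largest ratio for Scg2. None passed the test, nor did any of 10003 genes tested (0%, with 545, or 5.45%, at an unadjusted p under 0.05). Both replicates lay above WT for 5 of the 8 members and for 37.9% of all genes. These replicate ratios are fitted, because no array held a KO and a WT sample of the same replicate number. Of the 5 members, Gcg, Pyy and Insl5 had opposite signs on the 2 arrays that set KO directly against WT (values below). The members' median log2 ratio was 0.49, against 0.06 over all genes. Sst was not well above background in any organoid channel and is not ranked. Chga could not be fitted, because its single spot was an outlier on 2 arrays with KOWI.

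Scg2 had levels of 10.32 and 10.24 in KO organoids, against 8.46 and 9.40 in WT organoids. The groups did not overlap, and the log2 ratio was 1.35 (SE 0.28, 2.54-fold higher, limma adjusted p = 0.523). Chgb had 14.91 and 15.65 in KO organoids, against 14.23 and 14.66 in WT organoids, also without overlap (log2 ratio 0.84, SE 0.31). The Chgb ratio was 0.22 without KO replicate 2, 0.46 without WT replicate 1 and 1.31 without either KOWI replicate. Scg2 and Chgb were the only 2 of the 8 members without overlap, which 18.5% of all genes showed in that direction. For Chga, the 2 arrays that set KO directly against WT gave 1.20 and 0.51. With its outlier spots kept, the fitted Chga ratio was 0.69 (SE 0.22, adjusted p = 1.00).

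Gcg, Pyy, Insl5 and Cck differed more between the WT replicates than between the genotype means. Gcg had 8.41 and 9.49 in KO organoids, against 7.51 and 9.32 in WT organoids, so replicate 1 carried most of the log2 ratio of 0.54 (SE 0.40). Without WT replicate 1 the Gcg ratio was -0.11. Pyy had 10.56 and 10.78 in KO organoids, against 9.85 and 10.72 in WT organoids (log2 ratio 0.39, SE 0.25), and was -0.05 without WT replicate 1.

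The remaining members overlapped too. Insl5 had 8.43 and 9.14 in KO organoids, against 7.59 and 8.80 in WT organoids (log2 ratio 0.59, SE 0.32, with 1 array missing). Cck had 8.67 and 8.92 in KO organoids, against 8.10 and 9.31 in WT organoids (log2 ratio 0.09, SE 0.27). Nts had 9.22 and 8.14 in KO organoids, against 8.39 and 8.27 in WT organoids (log2 ratio 0.35, SE 0.57). Both turned negative without KO replicate 1, Cck at -0.24 and Nts at -0.54, and Cck was -0.42 without WT replicate 1. Tph1 had 8.93 and 8.50 in KO organoids, against 7.93 and 8.61 in WT organoids (log2 ratio 0.45, SE 0.34, with 1 array missing).

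KOWI organoids had the lowest levels of most members. Against KO, all 8 tested members were negative, and 7 of them in both replicates (29.3% of all genes), with a median log2 ratio of -1.01 against -0.03 over all genes. None passed the test, which called 0.42% of 10003 genes (17 higher and 25 lower). Against WT, 7 of 8 members were negative, 5 of them in both replicates (29.8% of all genes; members' median -0.52, against 0.02 over all genes) and none passed, where the test called 5.33% of genes (330 higher and 203 lower). The 3 organoid comparisons share their samples, so their values are given side by side and not as separate evidence.

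**Figure D2:**
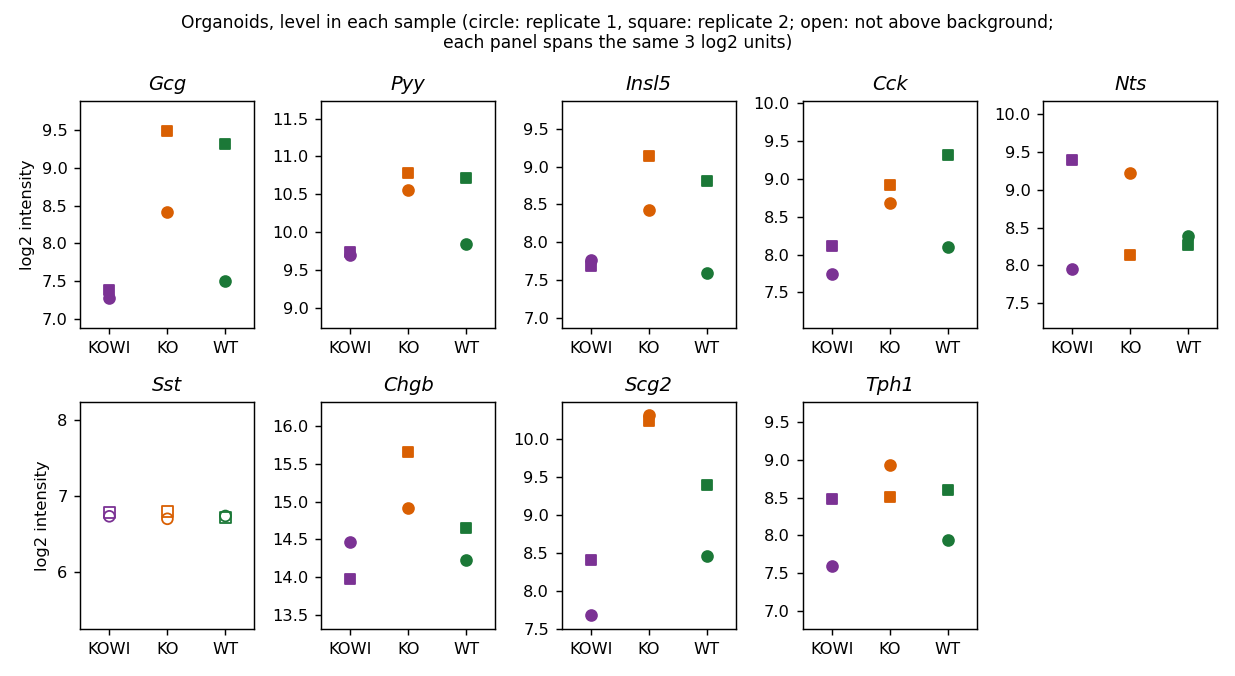
Level of 9 members in organoids, as normalised log2 intensity on the vertical axis, for KOWI, KO and WT samples. Circles are replicate 1 and squares replicate 2, open symbols were not above background, and Chga is left out because it could not be fitted. Scg2 lies highest in both KO samples and lowest in both KOWI samples.

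Scg2 stood lowest in KOWI: its level was 7.67 and 8.40 in KOWI organoids, against 10.32 and 10.24 in KO organoids and 8.46 and 9.40 in WT organoids. KOWI lay below both other groups without overlap. The log2 ratio was -2.24 against KO (SE 0.28, 4.72-fold lower, limma adjusted p = 0.0565) and -0.89 against WT (SE 0.28, adjusted p = 0.138). With 1 sample left out, the Scg2 ratio ran between -2.69 and -1.78 against KO and between -1.21 and -0.59 against WT. Against KO it passed the limma test when each probe was tested on its own (adjusted p = 0.0440). It did not pass with the scanner's log ratio, the authors' table, outlier spots kept, median centring or no filter on dim probes.

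Gcg had 7.28 and 7.39 in KOWI organoids, against 8.41 and 9.49 in KO organoids and 7.51 and 9.32 in WT organoids. It was above background in 2 of 4 KOWI channels and in all 4 of KO and of WT, so the log2 ratios of -1.62 against KO (SE 0.40, 3.06-fold lower, adjusted p = 0.156) and -1.08 against WT (SE 0.40, adjusted p = 0.186) rest on intensities near background in KOWI. The Gcg ratio to WT was -1.71 without KOWI replicate 1, and that to KO was -1.55 without WT replicate 1. Its ratio to WT was -0.38 without KOWI replicate 2 and -0.44 without WT replicate 2, and its ratio to KO was -0.98 without KOWI replicate 2.

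Pyy was even within KOWI, with 9.69 and 9.74 in KOWI organoids, against 10.56 and 10.78 in KO organoids and 9.85 and 10.72 in WT organoids. Its replicate ratios to KO were -0.87 and -1.03 (log2 ratio -0.95, SE 0.25, adjusted p = 0.169), and those to WT -0.15 and -0.98. Cck had 7.75 and 8.12 in KOWI organoids, against 8.67 and 8.92 in KO organoids and 8.10 and 9.31 in WT organoids (log2 ratio -0.87 against KO and -0.78 against WT, SE 0.27 each). On the arrays with KOWI, 40% to 90% of the 10 Cck spots were marked as outliers and left out. With them kept, the Cck array ratios to WT moved from -0.10 and -1.68 to 0.02 and -0.74. Those to KO moved from -0.44 and -1.06 to -0.06 and -0.61. Insl5 had 7.76 and 7.69 in KOWI organoids, against 8.43 and 9.14 in KO organoids and 7.59 and 8.80 in WT organoids (log2 ratio -1.06 against KO and -0.47 against WT, SE 0.32 each, with 1 array missing), and its ratio to WT was 0.04 without KOWI replicate 2. Insl5 was above background in 3 of 4 KOWI channels. Its missing array set KOWI against WT. With the outlier spot kept, that array gave 0.68 for Insl5, and the other array of KOWI with WT -0.96. Pyy, Cck and Insl5 lay below KO without overlap, and Pyy alone of them below WT without overlap.

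Chgb and Tph1 lay below KO and close to WT. Chgb had 14.46 and 13.98 in KOWI organoids, against 14.91 and 15.65 in KO organoids and 14.23 and 14.66 in WT organoids (log2 ratio -1.06 against KO and -0.22 against WT, SE 0.31 each). The Chgb ratio to WT was 0.55 without KOWI replicate 2 and 0.16 without WT replicate 2. On the arrays of KOWI with WT, 90% and 80% of the 10 Chgb spots were marked as outliers. With them kept, those array ratios were -0.73 and -0.67, against -0.72 and -0.67 without. Tph1 had 7.60 and 8.49 in KOWI organoids, against 8.93 and 8.50 in KO organoids and 7.93 and 8.61 in WT organoids (log2 ratio -0.68 against KO and -0.23 against WT, SE 0.34 each, with 1 array missing), so that its KOWI and KO groups nearly met (8.49 and 8.50). Nts was inconsistent between replicates again, with 7.95 and 9.40 in KOWI organoids, against 9.22 and 8.14 in KO organoids and 8.39 and 8.27 in WT organoids. Its replicate ratios to KO were -1.27 and 1.25, and those to WT -0.44 and 1.12. The array missing for Tph1 set KOWI against WT. It gave 0.29 for Tph1 with the outlier spot kept, and the other array of KOWI with WT gave -0.86. With outlier spots kept, Chga was -1.56 against KO (SE 0.22, adjusted p = 0.146) and -0.88 against WT (SE 0.22, adjusted p = 0.158).

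KOWI and KO groups did not overlap for 7 of 8 members, all lower in KOWI (21.7% of all genes), and KOWI and WT groups for 3 of 8, all lower in KOWI (24.1% of all genes). Because Cy3 went to each replicate 1 and Cy5 to each replicate 2, the replicate number also stands for the dye, and the 2 cannot be told apart.

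**Figure D3:**
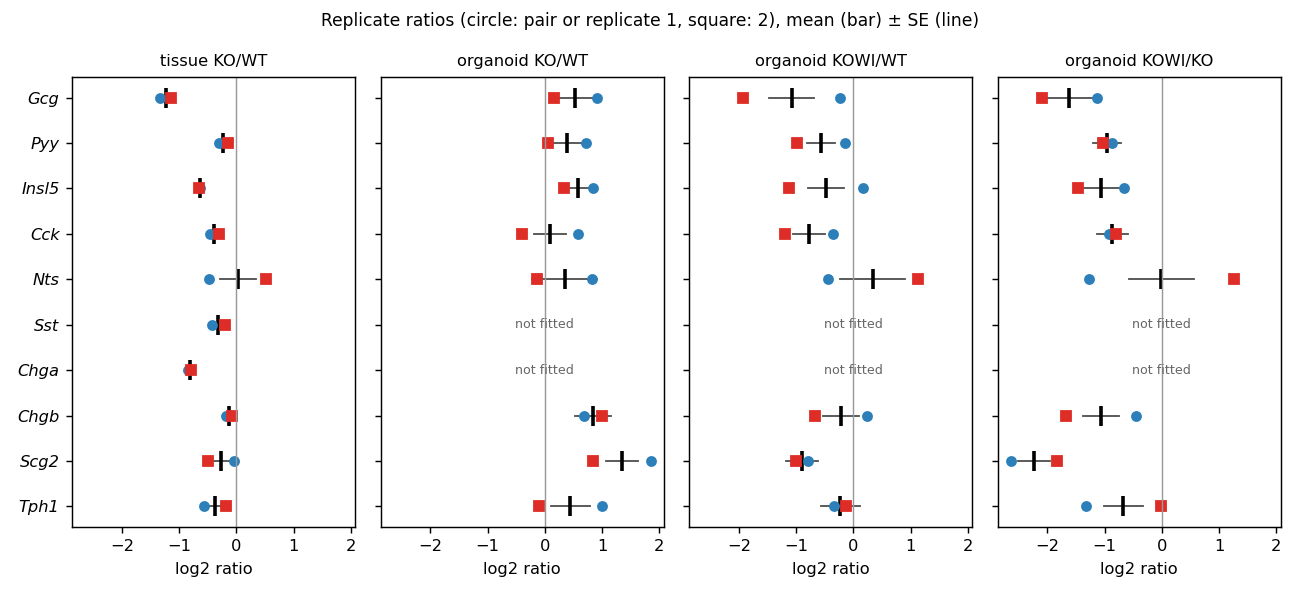
Log2 ratio of each member in the 4 comparisons. Circles and squares are the 2 mouse pairs or organoid replicates, the black bar is the mean and the line its SE. In tissue 9 members lie left of 0 in both pairs, in organoids 8 fitted ratios of KO over WT lie right of 0, and 8 of KOWI over KO lie left of 0.

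Markers of other epithelial cells differed between organoid groups as well. Of 9 goblet cell markers tested, 8 were positive in KO over WT (median 0.48), and 9 were negative in KOWI over WT (median -0.61) and in KOWI over KO (median -0.95), where Rep15 was the 1 gene to pass the test (log2 ratio -1.08 against WT, limma adjusted p = 0.0318, and -1.62 against KO, adjusted p = 0.0393). Colonocyte markers were negative for 8 of 8 genes in all 3 comparisons, with medians of -0.65 for KO over WT, -2.35 for KOWI over WT and -1.31 for KOWI over KO. They fell for 7 genes in KOWI over WT and for 3 in KOWI over KO. General epithelial markers were negative for 9 of 13 genes in KO over WT (median -0.07), 10 of 13 in KOWI over WT (median -0.24) and 9 of 13 in KOWI over KO (median -0.18). Of these, Vil1 (-1.23, limma adjusted p = 0.0336) and Krt20 (-1.46, adjusted p = 0.0413), which is also in the colonocyte list, fell in KOWI over WT. Both tuft cell markers tested were positive in all 3 comparisons, with medians of 0.58, 1.61 and 1.03, and Ptgs1 rose in KOWI over WT (2.74, limma adjusted p = 0.0476). Of 8 tuft cell markers, 0 were above background in every WT channel, against 1 in KO and 3 in KOWI. The tested markers thus passed the filter only through KO or KOWI, which favours a positive ratio to WT. Of the enteric neuron markers 4 could be tested, with medians of 0.24 in KO over WT and 0.13 in KOWI over WT. Uchl1 rose in KOWI over WT (limma adjusted p = 0.0413), by no exact size, since 0 of 4 WT channels were above background. Stmn2, Nefl and Nos1 were above background in no organoid channel. The part of these cell types in the members' values was not tested.

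The KO over WT ratio was below 0 in tissue and above 0 in organoids for 7 of the 8 members measured in both. The test of the difference, tissue minus organoid, was negative for all 8 (median -0.90, against -0.08 over 8671 genes) and passed for none, nor for any gene tested (0%, with 1088, or 12.5%, at an unadjusted p under 0.05). It was -1.77 for Gcg (SE 0.28, limma adjusted p = 0.227), -1.61 for Scg2 (SE 0.39, adjusted p = 0.303), -1.23 for Insl5 (SE 0.20, adjusted p = 0.231) and -0.97 for Chgb (SE 0.16, adjusted p = 0.231). For Tph1, Pyy, Cck and Nts it lay between -0.82 and -0.32. The test took 1 common spread for tissue pair ratios and organoid replicate ratios. Its SE lay below that of the organoid ratio alone for Gcg (0.40), Insl5 (0.32) and Chgb (0.31), and above it for Scg2 (0.28). These SEs can therefore understate the spread of the organoid samples. Tissue and organoids differed in recombinase, culture and injury, and were hybridised on separate slides, so only ratios within arrays were compared.

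**Figure D4:**
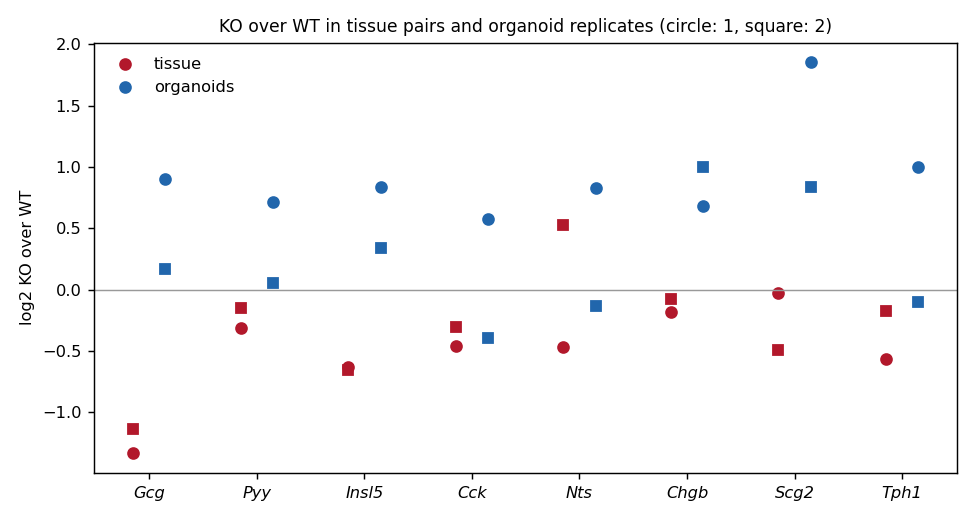
Log2 KO over WT of the 8 members measured in both settings, with tissue pairs in red and organoid replicates in blue. For Gcg, Pyy, Insl5, Chgb and Scg2 both tissue values lie below 0 and both fitted organoid values above it.

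Transcription factors of the enteroendocrine lineage were negative in tissue and positive in KO over WT organoids for most genes tested. In tissue 6 of 7 tested were negative (median -0.20), and the lowest p-values belonged to Neurod1 at -1.01 (SE 0.07), Insm1 at -0.91 (SE 0.10) and Foxa2 at -0.64 (SE 0.12), each with adjusted p of 0.243 to 0.270. In KO over WT organoids 7 of 7 were positive in both replicates (median 0.42), and the lowest p-values belonged to Insm1 at 0.97 (SE 0.20), Neurod1 at 0.93 (SE 0.22) and Lmx1a, which was well above background in 0 of 4 WT channels and is given no size. A gene above background in no channel of 1 group passed the filter only through the groups where it is high. Its ratios have no exact size, and the ranges given below for Olfr78 and Sstr1 with 1 sample left out share this limit. In KOWI over KO 5 of 7 were negative (median -0.14), with Insm1 at -1.30 (SE 0.20, limma adjusted p = 0.0725) and Lmx1a at 0.41. Lmx1a was above background in 2 of 4 KO channels. Neurod1 lay lower in KOWI, where 0 of 4 channels were above background, than in KO, where 4 of 4 were (limma adjusted p = 0.0610, and 0.0261 without WT replicate 2). Insm1 passed the test without KO replicate 1 (-1.46, adjusted p = 0.0404). In KOWI over WT 5 of 7 were positive (median 0.09), and Foxa1 was 0.49. Lmx1a lay higher in KOWI than in WT, where 0 of 4 channels were above background (limma adjusted p = 0.0636), and Neurod1 lower in KOWI (adjusted p = 0.155). No gene of the list passed the test with all samples. Neurog3, which starts the enteroendocrine lineage, was above background in no organoid channel.

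Other granule and prohormone processing genes had medians nearer 0. In tissue 14 of 18 tested were negative (median -0.10), with Slc18a1, the vesicular monoamine transporter of serotonin cells, at -1.13 (SE 0.25), the granule membrane protein gene Ptprn2 at -0.48 (SE 0.06) and Pcsk1, whose convertase cuts proglucagon to GLP-1, at -0.40 (SE 0.08). Slc18a1 was 0.29 without WT replicate 1. In KO over WT organoids 5 of 9 were positive (median 0.01), and Pcsk1 was -0.60 (SE 0.27) and Ptprn2 0.33, while Vgf lay higher in KO than in WT, where 0 of 4 channels were above background (limma adjusted p = 0.980). In KOWI over WT 8 of 9 were negative (median -0.14), with Slc18a1 at -0.50 and Ptprn2 at -0.20. Pcsk1 lay lower in KOWI, where 0 of 4 channels were above background, than in WT, where 4 of 4 were (limma adjusted p = 0.0571, and 0.0114 without KO replicate 1). In KOWI over KO 7 of 9 were negative (median -0.14), with Slc18a1 at -0.83 and Ptprn2 at -0.52, and Pcsk1 lower in KOWI again (limma adjusted p = 0.332). No gene of the list passed the test with all samples.

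Other peptide hormone genes did not share a direction. In tissue 4 of 6 tested were positive (median 0.05), with Nmb, for neuromedin B, at 0.70 (SE 0.12), Sct, for secretin, at -0.75 (SE 0.16) and Tac1, for substance P, at -0.26 (SE 0.07). In organoids 4 were tested, and 3 were positive in KO over WT, 2 in KOWI over WT and 2 in KOWI over KO. Tac1 had replicate ratios of 2.66 and 0.33 in KO over WT and a mean of 2.01 in KOWI over WT (SE 0.91). Sct was 0.29 in KO over WT, -0.22 in KOWI over WT and -0.50 in KOWI over KO (SE 0.31 each), and its sign turned in KO over WT (-0.04) and KOWI over WT (0.35) when 1 sample was left out. Nmb was 0.22 in KO over WT and -0.30 in KOWI over KO, and Penk, for enkephalin, was 0.26 in KOWI over WT and 0.27 in KOWI over KO. None passed the test.

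A list of genes linked to sensing in enteroendocrine cells holds receptors, channels and transporters. In tissue 5 of 6 tested were negative (median -0.23), with the fatty acid receptor genes Ffar4 at -0.50 (SE 0.07) and Ffar2 at -0.26 (SE 0.07), and Gper1 at -0.20 (SE 0.06). In organoids 3 were tested: Abcc8, a subunit of ATP-sensitive potassium channels, was 0.67 in KO over WT (SE 0.22), 0.79 in KOWI over WT and 0.12 in KOWI over KO. Slc5a1, the sodium-glucose cotransporter, was -0.22 in KO over WT, -0.92 in KOWI over WT (SE 0.21, limma adjusted p = 0.0707) and -0.70 in KOWI over KO. Olfr78, an olfactory receptor gene also expressed in enterochromaffin cells, was above background in 0 of 4 WT channels, and was -0.19 in KOWI over KO. A list of hormone receptor genes also holds the serotonin transporter gene Slc6a4 and the peptidase gene Dpp4. In tissue 7 of 9 tested were negative (median -0.06), with the somatostatin receptor genes Sstr1 at -0.82 (SE 0.17) and Sstr3 at -0.47 (SE 0.06), and Slc6a4 at -0.19 (SE 0.06). In organoids 6 were tested, with medians of 0.03 for KO over WT, -0.01 for KOWI over WT and -0.03 for KOWI over KO. In KO over WT, Sstr4 was -0.13, Sstr1 0.12 and Sstr5 0.05, and Sstr5 was -0.21 with median centring. In KOWI over WT, the glucagon receptor gene Gcgr was 0.42 and Sstr4 -0.26. In KOWI over KO, Gcgr was 0.42 and Sstr5 -0.15. Sstr1 lay lower in KOWI, where 0 of 4 channels were above background, than in KO (limma adjusted p = 0.496) and in WT (adjusted p = 0.423). No gene of these lists passed the test.

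**Figure D5:**
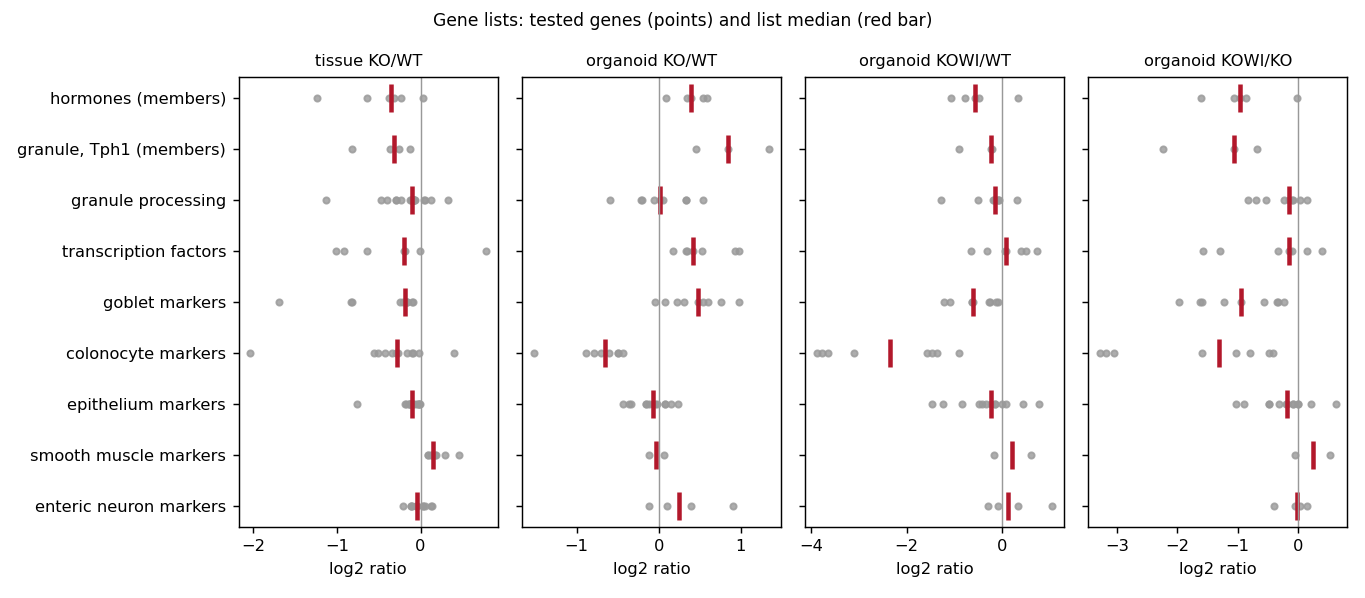
Log2 ratios of tested genes (grey points) and their median (red bar) for the members, 2 related lists and markers of 5 cell types, in the 4 comparisons. Each panel has its own horizontal scale. The members and goblet cell markers have negative medians in tissue, positive medians in KO over WT organoids and negative medians in both KOWI comparisons. Points of genes above background in no channel of 1 group are fitted ratios with no exact size.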

How the data were processed

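The deposited scanner files hold, per the file headers, spot intensities in 2 dyes and a log10 ratio of Cy5 over Cy3 from Agilent Feature Extraction 12.2.0.7, with probe positions in mm9. The authors' value table is on a log2 scale, as its match to the scanner ratios showed (slope 0.967 to 0.999, Cy5 over Cy3), with column medians of -0.000351 to 0.0173; its centring stays unknown. Per the submitters' processing notes limma was used, with no version given. Of 62976 spots, 3671 control spots were left out.

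From the intensities, background was corrected by normexp (offset 50), dyes were normalised by loess within each array, outlier spots were set aside and spots of a probe were averaged (R 4.3.3, limma 3.58.1). A gene is its brightest probe, and was kept where every channel of at least 1 group was well above background. Tissue ratios of both dye orientations were averaged per mouse pair and tested against 0. Values of the 6 organoid samples were solved by least squares from the loop of 6 arrays and fitted on group and replicate, with at most 1 array missing per gene. The difference between tissue and organoids was tested on these ratios. P-values were adjusted by Benjamini-Hochberg over all genes tested, with a threshold of 0.05. The scripts were tested on simulated data.

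Tissue mice were paired because each pair shared its arrays (correlation of deviations from the group means 0.754). Levels of a tissue pair include the mean intensity of their shared arrays, which can by itself raise this correlation, so it is no test of the pairing. Organoid values come from ratios alone, so their correlations are not the same check. They were 0.220 for KO with WT, 0.170 for KOWI with WT and -0.0183 for KOWI with KO, where the replicate number is also the dye. The array number limits the precision. The text names all members, and of each related list the 3 tested genes with the largest ratio among those called or, where none was, the smallest p. The members and lists were chosen with earlier results of these data known. Alternatives were background correction, normalisation, the source of the ratios, the filter on dim probes, outlier spots, the probe of a gene, arrays as replicates, the replicate block and leaving out each sample. One tissue label gives a mouse number that differs from the sample's title, and the title was used.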

Additional observations from a re-analysis of the deposited data

Results flagged for a closer look

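For 5 members both tissue pairs were lower in KO than in WT while both organoid replicates were higher in KO than in WT. The log2 difference, tissue minus organoid, was -0.97 for Chgb, -1.77 for Gcg, -1.23 for Insl5, -0.62 for Pyy and -1.61 for Scg2. In the test of the difference the limma adjusted p ran over these 5 members between 0.227 and 0.424, so it passed for none. The same pattern of signs was found in 1153 of 8671 genes tested (13.3%). The organoid replicate ratios are fitted, since no array set a KO sample against the WT sample of the same number. On the 2 arrays that set KO directly against WT, signs were opposite for Gcg (2.04 and -0.84), Insl5 (1.55 and -0.37) and Pyy (1.06 and -0.03). Both were above 0 for Chgb (1.90 and 0.73) and Scg2 (1.76 and 0.90). With 1 sample left out the difference ran between -1.11 and -0.37 for Chgb, -2.64 and -0.83 for Gcg, -1.06 and -0.12 for Pyy, and -2.08 and -1.15 for Scg2 over 8 runs each, and between -1.40 and -0.63 for Insl5 over the 5 runs that could be fitted. The values nearest 0 came without organoid WT replicate 1 for Gcg, Pyy, Scg2 and Insl5, and without organoid KO replicate 2 for Chgb.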

How the results depend on the processing

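With arrays counted as independent replicates, 3 members were called in tissue (590 genes), 1 in KO over WT organoids (636 genes), 4 in KOWI over WT (3707 genes), 7 in KOWI over KO (2269 genes) and 3 in the difference between tissue and organoids (773 of 8671 genes); that setting treats dye swaps and shared samples as replicates. Median centring called 3 members and 863 genes in tissue, 192 genes in KOWI over WT and 26 in KOWI over KO. In KOWI over WT the count of 533 genes became 150 with the scanner's log ratio, 4 with the authors' table, 245 with no filter on dim probes, 64 with outlier spots kept and 815 with every probe on its own. In KOWI over KO the count of 42 genes became 0, 0, 4, 0 and 78 in the same settings, the last with 1 member, Scg2. With no replicate block 400 and 38 genes were called, and 0 members in any organoid comparison. The causes were not tested.

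Leaving out 1 sample gave 0 to 11 genes in KO over WT, 0 to 826 genes and 0 to 1 members in KOWI over WT, and 0 to 173 genes and 0 to 2 members in KOWI over KO. Median centring turned Nts to -0.037 in tissue and 0.020 in KOWI over KO, and Sstr5 in KO over WT to -0.21; Sstr5 was -0.12 there with the authors' table and with outlier spots kept, and 0.0034 in KOWI over KO with the authors' table. Leaving out 1 sample turned these signs. In tissue Nts ran between -0.44 and 0.49 by mouse and -0.47 and 0.53 by pair, Pyy -0.67 and 0.21, Tph1 -0.86 and 0.12, Slc18a1 -2.55 and 0.29, and Slc6a4 -0.74 and 0.36. In KO over WT organoids Cck ran between -0.42 and 0.48, Gcg -0.11 and 1.11, Nts -0.54 and 1.20, Pyy -0.046 and 0.70, Sct -0.038 and 0.54, Slc5a1 -0.38 and 0.047, Sstr4 -0.45 and 0.19, Sstr1 -0.42 and 0.64, and Sstr5 -0.029 and 0.10. In KOWI over WT Chgb ran between -0.69 and 0.55, Insl5 -0.92 and 0.044, Nts -0.66 and 1.38, Sct -0.72 and 0.35, Olfr78 -0.10 and 0.34, and Sstr1 -1.01 and 0.049. Olfr78 was at background in WT and Sstr1 in KOWI. In KOWI over KO Nts ran between -1.05 and 0.99 and Olfr78 -0.42 and 0.075. In the difference Cck ran between -1.02 and 0.19 and Nts -0.84 and 0.23. The members' median kept its sign in every setting in which it was taken, between -0.45 and -0.29 in tissue, 0.18 and 0.73 in KO over WT, -0.90 and -0.20 in KOWI over WT, and -1.54 and -0.79 in KOWI over KO. It was not taken with every probe on its own. Insl5 and Tph1 could be fitted in only 2 of the 6 organoid runs with 1 sample left out, so the other medians lack them.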

Other observations

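Gcg and Tph1 had further probes that do not stand for the gene above. A second Gcg probe, at mm9 chromosome 2 from 62318657 to 62318716, was well above background in 0 of 8 tissue channels and 12 of 12 organoid channels. On the 2 arrays that set KO organoids directly against WT it gave 0.11 and -0.35, against 2.04 and -0.84 for the probe used. A second Tph1 probe was above background in 0 of 8 tissue channels and 6 of 12 organoid channels, and the last Tph1 probe in none of either.

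Genes whose log2 ratio of Cy5 over Cy3 followed the mean of 6 members (Gcg, Pyy, Cck, Nts, Chgb and Scg2) most closely over the 10 arrays, among 6615 genes, were Spink4 (Pearson r = 0.952), Slc12a8 (0.943), Ttll3 (0.942), Sertad3 (0.940), Ift172 (0.935), Spdef (0.935), Fam8a1 (0.928) and Gm9895 (0.928). The 10 arrays are not independent, since tissue arrays are dye swaps of 2 mouse pairs and each organoid sample lies on 2 arrays, and part of each r may be a shared dye effect, which was not tested. Spink4, expressed in goblet cells, and Spdef, a transcription factor of goblet cells, are in this group of 8.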
